A study of Homo sapiens with 16 samples.

Results

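LP-1-eGFP is the control line of a study of bortezomib in multiple myeloma, and its transcriptome after 24 h in 10 nM bortezomib is described here from 4 of the 16 arrays measured: 2 of cells given the drug and 2 of cells left untreated for the same 24 h. The members were chosen by their labels alone, that is, by line, treatment and time. The parental LP-1 cells came from a human multiple myeloma, and LP-1-eGFP carries a lentiviral vector that expresses enhanced green fluorescent protein and no other protein. Cells given the vector had been measured for the fluorescent protein and sorted. The control therefore carries the vector and the sorting but not the transgene of its partner line, LP-1-cIAP2-eGFP. That line expresses cIAP2, the protein encoded by BIRC3. The other 12 arrays hold LP-1-eGFP at 6 h, untreated or with 10 nM bortezomib, and LP-1-cIAP2-eGFP under all 4 conditions. Each condition had 2 biological replicates. The p-values below measure the spread between such pairs, and a single cell line stands behind all of them.

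Bortezomib is a boronic acid dipeptide that blocks the chymotrypsin-like site of the proteasome, the protease that takes apart proteins marked with ubiquitin. Cells that cannot clear such proteins are known to switch on heat shock chaperones, the unfolded protein response of the endoplasmic reticulum (ER), the antioxidant factor NRF2 and the proteasome genes themselves, the last through the factor NFE2L1. Plasma cells and the myeloma cells derived from them fold and export large amounts of immunoglobulin, which is the usual background given for their sensitivity to this drug.

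RNA was hybridized to 1-colour oligonucleotide arrays, and a signal is given below as the log2 of the normalized brightness of a probe. A signal ranks arrays for the same probe and says nothing about which of 2 genes is more abundant. Before normalization, the median gene probe read 6.58 and 5.89 on the untreated arrays (replicates 1 and 2) and 6.51 and 5.73 on the bortezomib arrays. The share of spots well above background was 69.3% and 61.4% on the untreated arrays, and 56.6% and 67.6% on the bortezomib arrays. Bortezomib replicate 1 was thus the dimmest of the 4 by detection, and the scanner software had marked 1876 of its spots as uneven or outlying, against 848, 475 and 472 on the others. It also lay on slide 1, whereas the remaining 3 arrays lay on slide 2. The number of arrays limits the precision throughout.

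The labelled cell type was checked against marker genes. Of 21 plasma cell identity genes, 16 were well above background on all 4 arrays. The surface proteoglycan SDC1 (CD138) read 11.30 and 11.62 on the untreated arrays and 9.57 and 9.74 on the bortezomib arrays. The receptor TNFRSF17 (BCMA), CD38, the secretory transcription factor XBP1 and the chaperone MZB1 were likewise well above background on each array. Of the matched markers of other cell types, 4 of 6 for T cells, 1 of 6 for mature B cells, 2 of 6 for myeloid cells, 2 of 4 for erythroid cells and 0 of 7 for epithelium and stroma were well above background on all 4 arrays. MS4A1 and PAX5 of mature B cells, CSF1R and FCGR3A of myeloid cells and EPCAM of epithelium did not pass the filter on dim probes. The summed signal of the T cell list, on the log2 scale, was 8.38 and 8.63 untreated and 8.20 and 8.39 with bortezomib, and none of its 6 genes was called. For mature B cells the sums were 9.91 and 10.20 untreated and 9.52 and 9.51 with bortezomib, and for myeloid cells 8.07 and 8.14 and then 7.69 and 7.90. The calls on the marker lists of other cell types were CR2, of B cells, and ITGAM, of myeloid cells, both lower, with none among 4 erythroid and 2 epithelial and stromal genes.

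A probe was called when its Benjamini-Hochberg adjusted p from limma was under 0.05 and its change exceeded 2-fold. After 24 h of bortezomib, 1792 of 33731 probes (5.31%) were higher and 2251 (6.67%) were lower, together 12%. The change over all probes had a median of -0.03. Among the calls, 406 rises and 581 falls exceeded 4-fold, and 41 rises and 23 falls exceeded 16-fold. The bortezomib and untreated arrays did not overlap for 3983 of the 4043 called probes, and for 58.5% of all probes tested. With the brightest probe standing for its gene, 1096 of 16385 genes (6.69%) were higher and 1382 (8.43%) lower, and these are the shares against which the gene lists below are read. A lower signal in a bulk culture can come from fewer cells that express a gene or from less RNA in each, and these cannot be told apart here.

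Slide and group were partly crossed, so each change was also read within slide 2, where bortezomib replicate 2 lay with both untreated arrays. Of the 4043 called probes, 4028 kept their direction there and 3653 changed by over 2-fold, 1667 of them rises and 1986 falls. These 3 arrays also entered the calls, so the count describes the called probes and is no independent check on a slide effect. When only the 4 arrays were fitted, with no spread borrowed from the rest of the series, no probe passed the adjusted threshold, although 9329 had an unadjusted p under 0.05 and 5495 of these changed over 2-fold. With the 4 arrays of 6 h of the same line added, 2096 were higher and 2820 lower. The calls therefore rest on a spread shared with further arrays.

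**Figure D1:**
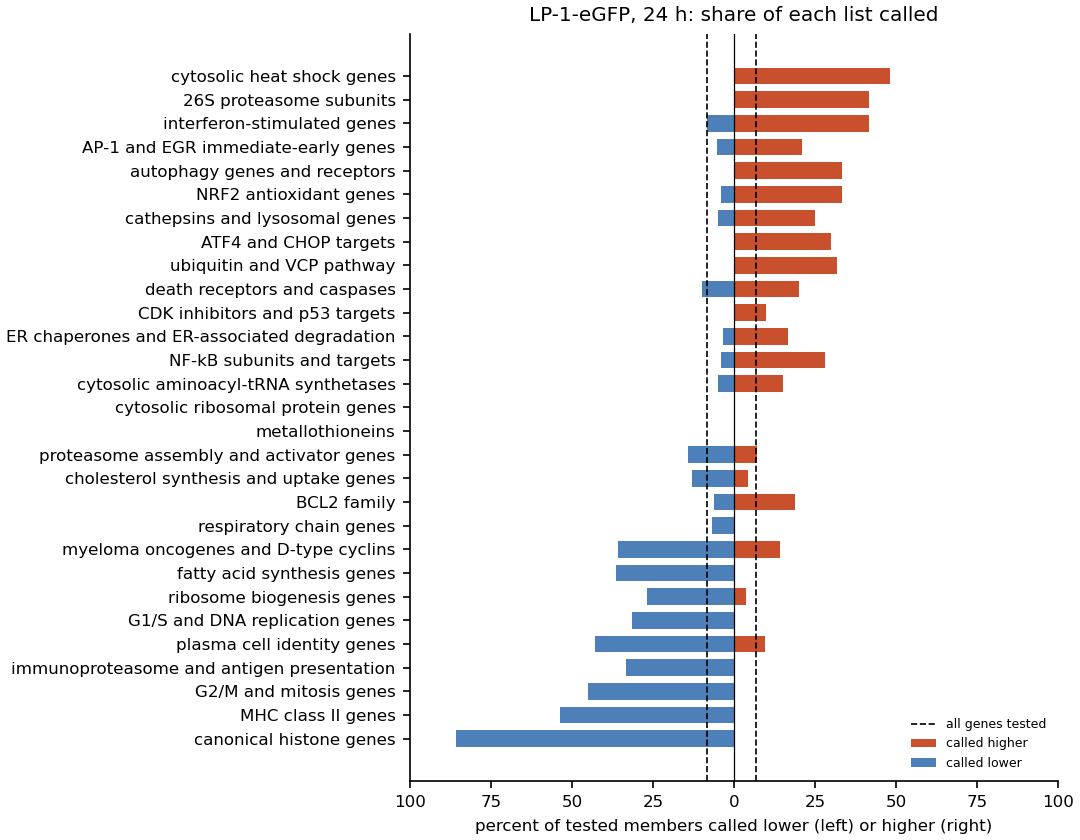
Percent of the tested members of each gene list called higher (right) or lower (left) in LP-1-eGFP after 24 h of bortezomib, with the background over all 16385 genes (6.69% higher, 8.43% lower) drawn for reference. Heat shock genes, proteasome subunits and interferon-stimulated genes lie furthest to the right, and canonical histone genes, MHC class II genes, mitosis genes and plasma cell identity genes furthest to the left.

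Some genes of the drug's own target rose. Of 36 genes listed as subunits of the 26S proteasome, 15 were called higher and none lower, and 30 passed the adjusted p upward at any size (median log2 change 0.94, against -0.03 for all probes). PSMC4, an ATPase of the base that unfolds substrates, read 13.10 and 13.32 on the untreated arrays and 15.35 and 15.17 on the bortezomib arrays. PSMD12, a subunit of the regulatory lid, read 12.32 and 12.38 on the untreated arrays and 14.28 and 14.17 on the bortezomib arrays. Both pairs of bortezomib arrays lay far above the untreated pairs, with rises of 2.05 for PSMC4 (standard error 0.146, adjusted p = 2.51e-05) and 1.88 for PSMD12 (standard error 0.131, adjusted p = 2.47e-05). PSMD14, the deubiquitinase of the lid, rose by 1.71. The catalytic subunit to which bortezomib binds, PSMB5, read 14.68 and 14.83 on the untreated arrays and 15.56 and 15.59 on the bortezomib arrays. Its bortezomib arrays were above the untreated ones too, but the change of 0.82 was under 2-fold (standard error 0.156, adjusted p = 0.00431). PSMD10, PSMD5 and PSMD9, which the list holds although they are chaperones of assembly, had values of -0.47, -0.27 and 0.40. These 3 proteins are not part of the finished particle. Depending on which of the 4 arrays was left out, 13 to 18 subunits were called.

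Helpers of the proteasome did not move as a group. Of 14 assembly and activator genes, 1 was higher and 2 were lower (median -0.03). These shares were 7.14% and 14.3%, against 6.69% and 8.43% of all genes. NFE2L1, the transcription factor that drives proteasome genes, rose by 1.20, with signals of 13.79 and 12.79 on the untreated arrays and 14.46 and 14.53 on the bortezomib arrays. Its untreated arrays lay about 1 log2 unit apart, and no gene of the list was called higher once untreated replicate 2 or any 1 of the bortezomib arrays was left out. With 75th percentile scaling NFE2L1 changed by 0.98 and was not called. PSME3, an activator subunit of nuclear proteasomes, fell by 1.11, and PSMG4, an assembly chaperone, fell by 1.27. The assembly chaperone POMP had a change of 0.56 (standard error 0.186, adjusted p = 0.0671).

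Promoters of the subunit genes were read from RefSeq (GRCh38.p14), from 250 bases before to 50 after 1 start a gene, for the core of the antioxidant response element, TGACNNNGC on either strand, to which NFE2L1 and NRF2 are known to bind. It was present in 8 of 31 matched promoters of the subunit list (25.8%) and in 6 of 18 of the NRF2 list (33.3%). Over all promoters it was present in 3702 of 27305 (13.6%). Below are 1 subunit promoter and 1 antioxidant promoter of genes described here, each in a window of 30 bases with the core in capitals. PSMD12 lies at chr17:67366723-67366752, minus strand, and MAFF at chr22:38201862-38201891, minus strand.
PSMD12: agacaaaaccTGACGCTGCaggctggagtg
MAFF: ccgcccccgtaTGACCCCGCcccctggaag
A match describes the letters in the window and is no evidence of binding. In the subunit list, 5 of the 8 genes with the core were called higher, among 14 called of the 31 matched. The 5 were PSMC4, PSMD12, PSMD1, ADRM1 and PSMB3. PSMD3, PSMD9 and PSMD5, which also hold the core, had changes of 0.81, 0.40 and -0.27 and were not called.

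The largest rise of the whole comparison was that of a heat shock gene. Of 29 genes of the mainly cytosolic heat shock response, a list that also holds HSPD1 of mitochondria and SERPINH1 of the ER, 14 were higher and none lower, with a median change of 0.98. HSPA6, a strictly inducible member of the Hsp70 family, read 6.77 and 7.78 on the untreated arrays and 16.34 and 16.97 on the bortezomib arrays. The 2 bortezomib arrays stood above the untreated arrays by more than any other probe, a change of 9.37 (standard error 0.314, adjusted p = 7.99e-07). A second HSPA6 probe gave 7.95. The co-chaperone BAG3 rose by 4.67, and DNAJB1, the Hsp40 partner of Hsp70, by 4.50. HSPA1B read 11.49 and 12.94 on the untreated arrays and 17.68 and 17.97 on the bortezomib arrays. All bortezomib arrays were higher, but the untreated arrays differed by over 1 log2 unit, replicate 2 being the higher, as they did for DNAJB1 (10.16 and 11.50) and HSPA8 (13.84 and 15.26). Untreated replicate 1 was the higher for 4 of the 29 genes, against 6220 of all 16385 genes. Replicate 2 exceeded it by over 1 log2 unit for 5, against 679 of all genes. The median of replicate 1 minus replicate 2 was -0.35, against -0.10 for all genes. HSPA1A and HSPA1B are near-identical copies, and the HSPA1A probe was well above background on only 1 of the 4 arrays, so its change of 1.89 is uncertain. The HSPA1A call was lost under 9 of 15 alternatives, among them normexp, the authors' values and slide as a block. Its change ranged from 0.65 to 2.25.

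Among other chaperones of the list, HSPA8, the constitutive Hsp70, rose by 2.11, HSPH1 by 2.07, and the Hsp90 gene HSP90AB1 by 1.16. HSP90AA1 had a change of 0.98 on its brightest probe, just under 2-fold, and 2.32 on its highest. The small heat shock protein HSPB1 had 0.44, HSF1, the master transcription factor of the response, 0.51, and the mitochondrial chaperonin HSPD1 0.60. These were not called. The count of called genes ranged from 11 to 17 with 1 of the 4 arrays left out.

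The factor HSF1 is known to bind repeated GAA units in alternating direction. Such a run of 3 units, GAA, TTC and GAA with any 2 bases between units, on either strand, was found in 6 of 27 matched heat shock promoters (22.2%) and in 133 of all 27305 (0.487%). The 6 genes, HSPA6, SERPINH1, HSPA8, DNAJA1, CHORDC1 and DNAJB6, were all among the called members. Windows of the 4 genes below show the element in capitals, each on the strand of its gene: HSPA6 at chr1:161524458-161524487 (plus), SERPINH1 at chr11:75562169-75562198 (plus), HSPA8 at chr11:123062170-123062199 (minus) and CHORDC1 at chr11:90223088-90223117 (minus).
HSPA6: cggaaaggTTCGCGAAAGTTCgcggcggcg
SERPINH1: ttccaactTTCCAGAAGTTTCtcgggacgg
HSPA8: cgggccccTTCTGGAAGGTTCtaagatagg
CHORDC1: cgcgaccgGAAAATTCGCGAAggttcctga
These genes differed widely in size of change, from 9.37 for HSPA6 through 2.41 for SERPINH1, a collagen chaperone, to 1.01 for CHORDC1, a partner of Hsp90. BAG3 rose by more than SERPINH1 and does not hold these letters in the 300 bases searched.

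**Figure D2:**
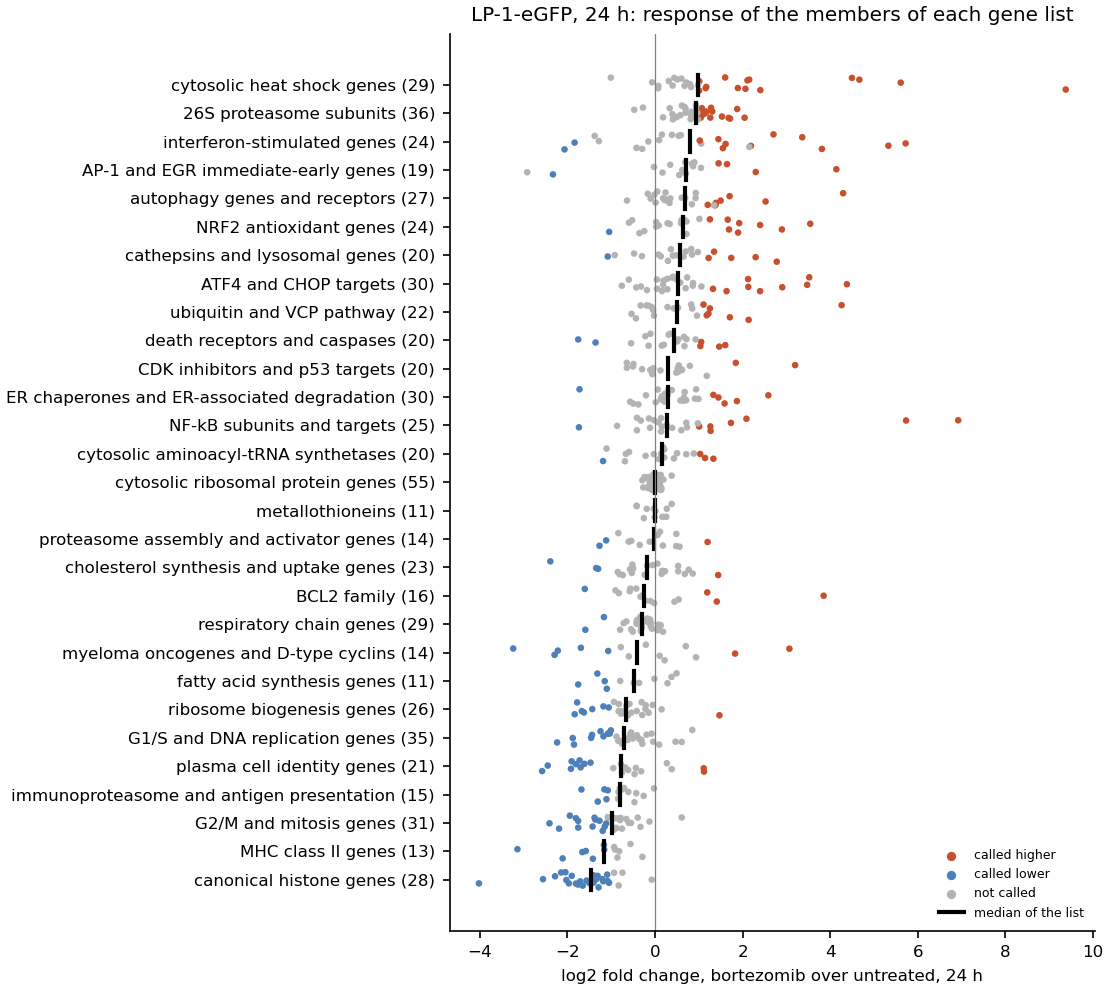
Log2 change at 24 h, bortezomib over untreated, of each tested member of each gene list in LP-1-eGFP, 1 point a gene on its brightest probe, with the median of the list as a vertical bar. HSPA6 is the furthest point to the right at 9.37, and the whole of the histone list lies at or below -0.07.

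Some genes of ubiquitin handling and of bulk degradation also rose. In the ubiquitin and VCP pathway, 7 of 22 genes were higher and none lower (median 0.50). ZFAND2A, an arsenite-inducible protein that associates with the proteasome, read 10.58 and 10.51 on the untreated arrays and 14.74 and 14.86 on the bortezomib arrays. The replicates of each group lay within 0.2 log2 units of each other, and the rise was 4.26 (standard error 0.148, adjusted p = 7.99e-07). VCP, the ATPase that extracts ubiquitinated proteins from membranes and complexes, rose by 1.11, and its cofactors UFD1 and NPLOC4 by 1.25 and 1.22. The polyubiquitin gene UBB had a change of 0.43 and was not called.

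Of 27 autophagy genes and receptors, 9 were higher and none lower (median 0.69). GABARAPL1, a ubiquitin-like protein of the autophagosome membrane, read 10.04 and 9.87 on the untreated arrays and 14.23 and 14.27 on the bortezomib arrays. SQSTM1 (p62), which carries ubiquitinated cargo to it, read 13.95 and 13.46 on the untreated arrays and 16.26 and 16.20 on the bortezomib arrays. No bortezomib array of either gene came near an untreated one, and the rises were 4.29 (standard error 0.175, adjusted p = 1.66e-06) and 2.52 (standard error 0.224, adjusted p = 6.79e-05). The kinase ULK1, which starts the process, rose by 1.70, and MAP1LC3B by 1.39. Of 20 lysosomal genes, 5 were higher and 1 lower (median 0.57), the latter 5% against 8.43% of all genes. The lysosomal hydrolases GLA and CTSD rose by 2.78 and 2.30, and the cholesterol transporter NPC1 by 1.74, whereas the peptidase CTSC fell by 1.08, and none was called lower without untreated replicate 2 or bortezomib replicate 1.

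Of 30 ER chaperones and degradation genes, 5 were higher at 24 h and 1 lower (median 0.30). The share called higher was 16.7%, against 6.69% of all genes. The share called lower, 3.33%, was under the 8.43% of all genes. HSPA5 (BiP), the Hsp70 of the ER, read 10.28 and 10.46 on the untreated arrays and 13.01 and 12.91 on the bortezomib arrays. XBP1, the factor that expands the secretory apparatus of plasma cells, read 17.69 and 17.60 on the untreated arrays and 15.91 and 15.93 on the bortezomib arrays. The 2 genes thus moved in opposite directions with no overlap between groups, by 2.59 (standard error 0.131, adjusted p = 7.73e-06) and -1.72 (standard error 0.125, adjusted p = 2.69e-05). The probe does not tell the spliced form of XBP1 RNA from the unspliced. HSP90B1 and CALR, further ER chaperones, had changes of 0.16 and 0.21, and HERPUD1, of ER-associated degradation, 0.31. The number called higher dropped from 5 to 2 without untreated replicate 2.

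The ER stress response element, CCAAT and CCACG with any 9 bases between them, on either strand, was found in 7 of 26 matched promoters of this list (26.9%) and in 22 of all 27305 (0.0806%). The windows of 3 genes that hold it are shown because their signals went 3 ways, with the element in capitals: HSPA5 at chr9:125241385-125241414 (minus strand), HSP90B1 at chr12:103930211-103930240 (plus strand) and XBP1 at chr22:28800597-28800626 (minus strand).
HSPA5: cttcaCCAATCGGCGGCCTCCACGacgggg
HSP90B1: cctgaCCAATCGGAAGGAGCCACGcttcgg
XBP1: gctggCCAATCGCGGAGGGCCACGaccgta
HSPA5 rose, XBP1 fell and HSP90B1 did not pass the test. The remaining 4 holders were ERO1B, which rose by 1.87, and CANX, CALR and CRELD2, which were not called.

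Among targets of ATF4 and CHOP, the factors of the integrated stress response, 9 of 30 were higher and none lower (median 0.53). ATF3, a repressor induced by many stresses, read 11.42 and 9.45 on the untreated arrays and 14.61 and 15.02 on the bortezomib arrays on the brightest of 4 probes, the lowest of which changed by 0.13. DDIT3, which encodes CHOP, read 11.91 and 9.94 on the untreated arrays and 14.40 and 14.39 on the bortezomib arrays. Bortezomib arrays exceeded both untreated arrays in each case, with changes of 4.38 (standard error 0.542, adjusted p = 4.06e-04) and 3.47 (standard error 0.495, adjusted p = 8.94e-04), although the untreated arrays themselves lay almost 2 log2 units apart. PPP1R15A, the phosphatase subunit that restores translation, rose by 3.52, the pseudokinase TRIB3 by 2.13 and the cystine transporter SLC7A11 by 2.40. CHAC1, which degrades glutathione, read 14.54 and 10.66 on the untreated arrays and 11.81 and 12.75 on the bortezomib arrays. Here the groups overlapped, because untreated replicate 1 was the highest of the 4 arrays and replicate 2 the lowest, and the change was -0.32 (standard error 0.966, adjusted p = 0.890).

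That disagreement ran through the list. In untreated cells at 24 h, replicate 1 exceeded replicate 2 by over 1 log2 unit for 14 of the 30 genes (46.7%), against 713 of all 16385 genes (4.35%), with a median difference of 0.88 against -0.10. The number called higher was 12 without untreated replicate 1 and 6 without bortezomib replicate 1. Asparagine synthetase, ASNS, which had 16.24 and 14.90 on the untreated arrays and 16.37 and 16.51 on the bortezomib arrays, is an example in which only untreated replicate 2 lay apart from the rest. The part of this disagreement in the results of the list was not tested beyond leaving out single arrays. Of 20 cytosolic aminoacyl-tRNA synthetases, several of which ATF4 is known to induce, 3 were higher (WARS1, GARS1 and HARS1, by 1.33, 1.14 and 1.03). VARS1 was lower by 1.18, a share of 5% against 8.43% of all genes. With 75th percentile scaling GARS1 changed by 0.93 and was not called, and the median of the list was -0.03 in place of 0.17. The number called higher was 5 without untreated replicate 1 and 2 without bortezomib replicate 1. The letters TGATGNAA, the CEBP-ATF element to which ATF4 and CHOP are known to bind, were in 5 of 24 matched promoters of the ATF4 and CHOP list (20.8%) and in 1003 of all 27305 (3.67%). Among them was ATF3, at chr1:212565205-212565234 (plus strand), shown with the element in capitals.
ATF3: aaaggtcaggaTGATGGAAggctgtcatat
The other holders, ASNS, SLC3A2, CHAC1 and FGF21, were not called at 24 h.

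In the antioxidant response, 8 of 24 NRF2 genes were higher and 1 lower (median 0.64). The share called lower, 4.17%, was under the 8.43% of all genes. HMOX1, heme oxygenase 1, read 12.29 and 12.54 on the untreated arrays and 14.23 and 14.45 on the bortezomib arrays. The groups were clearly separated, and HMOX1 rose by 1.92 (standard error 0.163, adjusted p = 5.54e-05). MAFF, a small MAF partner of NRF2, rose by 3.54, OSGIN1 by 2.90, and SRXN1, sulfiredoxin, by 1.90. NQO1, a quinone reductase often used as the marker of NRF2, read 9.34 and 9.65 on the untreated arrays and 8.43 and 8.47 on the bortezomib arrays. It was lower on both bortezomib arrays and fell by 1.05 (standard error 0.143, adjusted p = 7.30e-04). TXNRD1, thioredoxin reductase, had a change of 0.03, and FTH1, ferritin heavy chain, 0.09. None of 11 metallothionein and zinc response genes was called (median -0.01), and MT2A, the most abundant of these proteins in most cells, had 0.26. The metal response core TGCNCNC was present in all 7 matched promoters of that list and in 55.2% of all promoters.

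Some genes of cell death rose. In the BCL2 family, 3 of 16 genes were higher and 1 was lower (median -0.25). The proapoptotic BH3-only gene PMAIP1 (NOXA) read 11.94 and 10.18 on the untreated arrays and 15.09 and 14.73 on the bortezomib arrays. The antiapoptotic gene BCL2L1 (BCL-XL) read 10.71 and 10.73 on the untreated arrays and 9.0 and 9.23 on the bortezomib arrays. The bortezomib arrays were the highest for PMAIP1 and the lowest for BCL2L1, with changes of 3.85 (standard error 0.530, adjusted p = 7.41e-04) and -1.60 (standard error 0.181, adjusted p = 2.47e-04). BBC3 (PUMA) and HRK, both BH3-only, rose by 1.41 and 1.19. MCL1, on which myeloma cells commonly depend, had a change of -0.02, BCL2L11 (BIM) -0.58 and BIK -0.28. The number called higher was 2 without bortezomib replicate 1, and the number called lower, a share near the background, was 2 without untreated replicate 2.

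Of 20 death receptor and caspase genes, 4 were higher and 2 lower, the latter a share near the background (median 0.43). The TRAIL receptor TNFRSF10B (DR5) read 10.75 and 10.33 on the untreated arrays and 11.94 and 12.07 on the bortezomib arrays. Both bortezomib arrays exceeded both untreated arrays, and it rose by 1.47 (standard error 0.169, adjusted p = 2.73e-04). TNFRSF1A, the TNF receptor, rose by 1.61, the initiator caspase gene CASP9 by 1.05 and BIRC2, which encodes cIAP1, by 1.04. CASP8 had 0.66 and the decoy CFLAR (c-FLIP) -0.22. Cytochrome c, CYCS, fell by 1.36, and survivin, BIRC5, by 1.75. Calls of higher signal numbered 1 without untreated replicate 1 and 2 without bortezomib replicate 1. In the list of CDK inhibitors and p53 targets, 2 of 20 genes were higher, GADD45A by 3.20 and GADD45G by 1.84, and none lower. The share called higher, 10%, was near the 6.69% of all genes. MDM2, the p53 target most often read out, had -0.06. The CDKN1A (p21) spot of bortezomib replicate 1 had been removed as an outlier, and the 3 others read 4.68, 4.34 and 5.13, a change of 0.62 (standard error 0.606, adjusted p = 0.585).

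NF-kB is held in the cytosol by inhibitors that the proteasome degrades, and cIAP2 (BIRC3) acts in the pathways that release it. Of 25 NF-kB subunits and targets, 7 were higher and 1 lower (median 0.27). The chemokine gene CCL4 read 5.98 and 5.43 on the untreated arrays and 12.85 and 12.41 on the bortezomib arrays. CCL3 read 11.90 and 9.90 on the untreated arrays and 16.94 and 16.32 on the bortezomib arrays. The bortezomib arrays lay at least 4 log2 units above the untreated ones for both, and the changes were 6.92 (standard error 0.471, adjusted p = 2.23e-05) and 5.73 (standard error 0.656, adjusted p = 2.66e-04). CCL3 and CCL3L3 are near-identical copies, whose probes cannot be taken as independent. CCL3L3 changed by 6.24. CCL5, which attracts T cells, read 8.96 and 7.38 on the untreated arrays and 13.88 and 13.13 on the bortezomib arrays, and also rose on both arrays, by 5.33. For CCL3, CCL3L3 and CCL5, untreated replicate 1 exceeded replicate 2 by over 1 log2 unit.

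Members of the list other than chemokines were higher, lower in 1 case, or not called. NFKBIA, the inhibitor IkB-alpha and itself a target, rose by 1.27 (standard error 0.180, adjusted p = 8.58e-04), NFKBIZ by 2.09 and the receptor CD40 by 1.27. BIRC3 read 13.54 and 13.55 on the untreated arrays and 14.04 and 13.83 on the bortezomib arrays. The bortezomib arrays were slightly the higher, but the change of 0.39 did not pass (standard error 0.150, adjusted p = 0.0996). TNFAIP3 (A20) had -0.32, RELB 0.60 and NFKB1 -0.41. BCL3, a nuclear cofactor of NF-kB, fell by 1.74. It was the only gene of the list called lower, a share of 4% against 8.43% of all genes. Fewer than 7 were called higher whichever of the 4 arrays was left out.

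Several interferon-stimulated genes rose. Of 24 genes, 10 were higher and 2 lower (median 0.81). IFIT3 read 5.68 and 5.67 on the untreated arrays and 11.67 and 11.12 on the bortezomib arrays. IFIT1, which binds foreign RNA ends, read 5.89 and 6.54 on the untreated arrays and 11.61 and 11.48 on the bortezomib arrays. Each bortezomib array was over 4 log2 units above each untreated array, and the rises were 5.72 (standard error 0.336, adjusted p = 1.41e-05) and 5.33 (standard error 0.363, adjusted p = 2.23e-05). OASL, RSAD2 and IRF7 rose by 3.36, 2.71 and 1.55. ISG15 and MX1, the genes most used as signs of interferon, had changes of 0.59 (standard error 0.320, adjusted p = 0.258) and 0.16 (standard error 0.314, adjusted p = 0.815). USP18, which restrains interferon signalling, fell by 1.83. IFITM1 fell by 2.06, a value with bortezomib replicate 1 removed as an outlier. The share called lower, 8.33%, was near the 8.43% of all genes, and the number was 1 without any single one of the 4 arrays.

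Of 19 AP-1 and EGR genes, 4 were higher and 1 lower, the latter 5.26% against 8.43% of all genes. JUN read 9.07 and 8.59 on the untreated arrays and 12.56 and 13.38 on the bortezomib arrays. The groups were over 3 log2 units apart, and JUN rose by 4.14 (standard error 0.408, adjusted p = 1.23e-04). FOS, its partner in AP-1, read 10.09 and 6.78 on the untreated arrays and 9.49 and 9.48 on the bortezomib arrays, and EGR1 read 10.43 and 7.65 on the untreated arrays and 5.24 and 7.0 on the bortezomib arrays. For both, untreated replicate 1 was about 3 log2 units above untreated replicate 2, and neither change, 1.05 for FOS and -2.92 for EGR1, passed the test. BTG2, an antiproliferative gene, fell by 2.33. The number called higher was 2 without replicate 2 of either group.

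Calls among genes of the immunoproteasome and of antigen presentation were in the opposite direction to those of the standard proteasome. Of 15 such genes, none was higher and 5 were lower (median -0.80). PSMB9, which replaces a standard catalytic subunit in immune cells, read 14.31 and 14.50 on the untreated arrays and 13.27 and 13.39 on the bortezomib arrays. PSMB8, which takes the place of PSMB5, read 13.02 and 13.33 on the untreated arrays and 11.95 and 12.19 on the bortezomib arrays. Every bortezomib array lay below every untreated array, with falls of 1.08 (standard error 0.126, adjusted p = 3.02e-04) and 1.11 (standard error 0.218, adjusted p = 0.00535). TAPBP, which loads peptide on class I molecules, fell by 1.68. B2M, the light chain of class I, had a change of -0.83 (standard error 0.124, adjusted p = 0.00114), below 2-fold, and HLA-E had -0.02. The number called lower was 3 without bortezomib replicate 1 or untreated replicate 2.

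Of 13 MHC class II genes, 7 were lower and none higher (median -1.16). CIITA, the coactivator on which class II transcription depends, read 12.80 and 12.71 on the untreated arrays and 9.41 and 9.82 on the bortezomib arrays. It was lower on both bortezomib arrays by about 3 log2 units, a fall of 3.14 (standard error 0.542, adjusted p = 0.00262). The peptide exchange gene HLA-DMB fell by 2.11. HLA-DRA and the invariant chain CD74 had changes of -0.86 and -0.91, under 2-fold. HLA-DRB1 and HLA-DRB5 are near-identical and polymorphic, so that their falls, 1.42 and 1.58, may be shared.

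Many genes of proliferation were lower. Of 35 genes of G1/S and DNA replication, 11 were lower (median -0.70), and of 31 genes of G2/M and mitosis, 14 were lower (median -0.98). No member of either list was called higher. E2F2, a factor that drives S-phase genes, read 16.20 and 16.18 on the untreated arrays and 13.75 and 14.17 on the bortezomib arrays. PLK1, the kinase of mitotic entry, read 12.52 and 12.68 on the untreated arrays and 10.10 and 10.29 on the bortezomib arrays. The bortezomib arrays lay about 2 log2 units below the untreated ones, with falls of 2.23 (standard error 0.193, adjusted p = 5.89e-05) and 2.41 (standard error 0.241, adjusted p = 1.32e-04). E2F1 fell by 1.85, TYMS, of nucleotide synthesis, by 1.44, CDC20, which activates the anaphase-promoting complex, by 2.19, and CDK1 by 1.19. The general proliferation marker MKI67 had -0.84 on its brightest probe and was not called there. The number of G1/S genes called was 7 without bortezomib replicate 1.

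Late cell cycle promoters commonly hold the cell cycle genes homology region, TTTGAA. These letters, on either strand, were in 17 of 27 matched G2/M promoters (63.0%) and in 4212 of all 27305 (15.4%). Among genes that fell, it is shown for PLK1 at chr16:23678848-23678877 (plus strand) and CDC20 at chr1:43358904-43358933 (plus strand), with the letters in capitals.
PLK1: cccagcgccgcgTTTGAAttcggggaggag
CDC20: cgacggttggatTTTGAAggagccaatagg
CENPF and ASPM, which hold the same letters, had changes of -0.65 and -0.75 and were not called.

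Canonical histone genes, which are transcribed in S phase, gave the lowest median of all lists, -1.45. Of 28 genes, 24 were lower and none higher. H2BC12 read 16.18 and 16.45 on the untreated arrays and 14.01 and 14.06 on the bortezomib arrays. The groups were over 2 log2 units apart, and it fell by 2.28 (standard error 0.147, adjusted p = 1.85e-05). Histone genes of a family are near-identical, and a probe may read several of them. The number called was 17 without bortezomib replicate 1.

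Several markers of plasma cell identity fell. Of 21 genes, 9 were lower and 2 higher (median -0.78), the latter 9.52% against 6.69% of all genes. TXNDC5, a disulfide isomerase of the ER, read 15.59 and 15.44 on the untreated arrays and 13.02 and 12.86 on the bortezomib arrays. MZB1, which assists antibody assembly, read 15.90 and 16.05 on the untreated arrays and 13.81 and 14.31 on the bortezomib arrays. Both were lower on both bortezomib arrays, by 2.58 (standard error 0.155, adjusted p = 1.49e-05) and 1.92 (standard error 0.202, adjusted p = 1.70e-04). SDC1 fell by 1.80 (standard error 0.174, adjusted p = 1.08e-04), CD38 by 1.70 (standard error 0.185, adjusted p = 2.04e-04) and TNFRSF17 by 1.47 (standard error 0.394, adjusted p = 0.0247). All 3 encode surface proteins that myeloma antibodies or engineered T cells are directed against. SLAMF7, another such surface protein, was higher by 1.12, though well above background on only 1 untreated array. The transcription factor IRF4 had a change of -0.61 (standard error 0.209, adjusted p = 0.0681). PRDM1 (BLIMP1) had -0.95, with bortezomib replicate 1 removed as an outlier, and was under 2-fold. The joining chain of IgA and IgM, JCHAIN, had -0.78 and was not called. Only 1 was called higher without bortezomib replicate 2 or either untreated array.

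LP-1 is known for the translocation that places FGFR3 and NSD2 (MMSET) beside the immunoglobulin heavy chain locus. Of 14 myeloma oncogenes and D-type cyclins, 2 were higher and 5 lower. FGFR3 read 15.76 and 15.92 on the untreated arrays and 12.87 and 14.23 on the bortezomib arrays. NSD2 read 12.09 and 11.84 on the untreated arrays and 10.74 and 11.06 on the bortezomib arrays. Both were lower on both bortezomib arrays, although the FGFR3 readings with bortezomib lay over 1 log2 unit apart. FGFR3 fell by 2.29 (standard error 0.340, adjusted p = 0.00111) and NSD2 by 1.07 (standard error 0.162, adjusted p = 0.00128). CCND2, the D-type cyclin, read 15.18 and 14.77 on the untreated arrays and 11.64 and 11.85 on the bortezomib arrays, a fall of 3.23 (standard error 0.188, adjusted p = 1.33e-05). BCL6, a transcriptional repressor, rose by 1.83. The lymphoid factor IKZF3 (Aiolos) fell by 1.69, and IKZF1 (Ikaros) had 0.22. The number called lower was 3 without untreated replicate 1, untreated replicate 2 or bortezomib replicate 1, and the number called higher was 1 without either of the last 2.

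In the metabolic and biosynthetic lists most calls were falls. Of 11 fatty acid synthesis genes 4 were lower, among them FASN by 1.31 and ELOVL6 by 1.75, and 1 was called lower without bortezomib replicate 1. Of 23 cholesterol genes, a share near the background, 3 were lower, led by TM7SF2, a sterol reductase, with a fall of 2.39, and 1 was higher (STARD4, 1.44). SCD, the desaturase, had 0.38. Of 26 ribosome biogenesis genes 7 were lower, among them UBTF, of RNA polymerase I, by 1.78, and RRP12 was higher by 1.47. Shares called higher in the cholesterol and ribosome biogenesis lists, 4.35% and 3.85%, were under the 6.69% of all genes. Of 55 ribosomal protein genes none was called, with values between -0.29 and 0.38 (median -0.01, and 0.24 with 75th percentile scaling). Of 29 respiratory chain genes 2 were lower, a share under the 8.43% of all genes, CYC1 by 1.16 and ATP5MC1 by 1.59, and 1 was called without bortezomib replicate 1. The number of cholesterol genes called higher was 2 without bortezomib replicate 2.

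Outside the lists, the 12 largest rises well above background on all 4 arrays held the chemokines, HSPA6, HSPA1B, IFIT1 and IFIT3 with 4 further genes. ANXA1, a calcium-dependent phospholipid-binding protein that restrains inflammation, read 6.72 and 6.45 on the untreated arrays and 14.55 and 14.40 on the bortezomib arrays. MLLT11 read 9.48 and 9.96 on the untreated arrays and 15.26 and 15.10 on the bortezomib arrays. Replicates of ANXA1 and MLLT11 were close, and the rises were 7.89 (standard error 0.304, adjusted p = 1.35e-06) and 5.45 (standard error 0.167, adjusted p = 7.99e-07). SEL1L3 rose by 5.05. FAM114A1 was called with 4.87, but its bortezomib arrays read 12.95 and 7.01, so that the size of the change differed widely between the replicates (standard error 1.47, adjusted p = 0.0419). Its call was lost under 9 of 15 alternatives, among them normexp, slide as a block and array weights.

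Among the 12 largest falls, RASSF4, a RAS-association protein, read 13.73 and 13.61 on the untreated arrays and 9.64 and 9.74 on the bortezomib arrays. RFLNB, a regulator of filamin, read 13.97 and 13.90 on the untreated arrays and 9.92 and 10.08 on the bortezomib arrays. Both fell by close to 4 log2 units with replicates within 0.2 of each other, so that RASSF4 fell by 3.98 (standard error 0.134, adjusted p = 7.99e-07) and RFLNB fell by 3.94 (standard error 0.143, adjusted p = 1.05e-06). The cytoskeletal gene SYNPO fell by 4.74, the Rac regulator CHN2 by 4.24, the ATP-gated channel P2RX5 by 3.91, the adhesion molecule PECAM1 (CD31) by 3.66 and HES6 by 3.64. GALNT18 and EDN2 fell by 3.89 and 3.60. For 3 of the 12, a second probe changed by over 2 log2 units less. The IGLL1 probe fell by 4.25 and the other by 1.76, and IGLL1 is close in sequence to the immunoglobulin lambda genes. A second VSTM4 probe gave -1.37 against -3.75. A second GOLGA7B probe gave -0.05 and was not called, against -4.03.

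**Figure D3:**
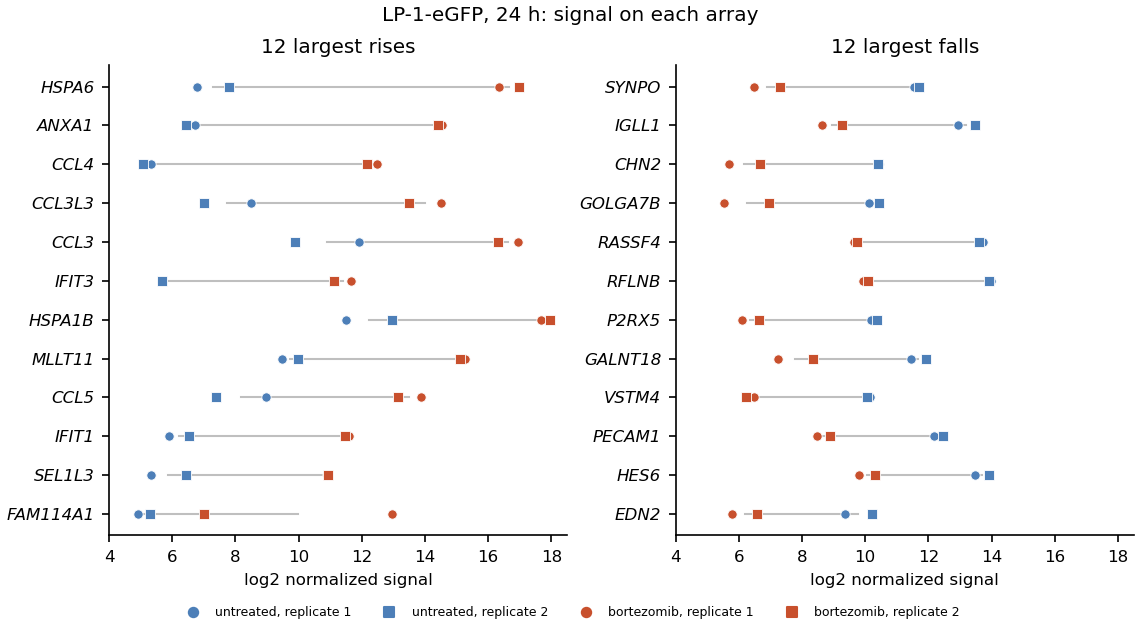
Log2 normalized signal on each of the 4 arrays (blue untreated, red bortezomib, circle replicate 1, square replicate 2) for the 12 largest rises (left) and 12 largest falls (right) called at 24 h, with a grey line between the group means. The groups do not overlap for any of the 24 genes, and FAM114A1 is the one whose bortezomib replicates lie far apart, at 12.95 and 7.01.

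For 83 called probes neither untreated array was well above background, and for 150 neither bortezomib array was. Such changes are lower bounds on the quantile normalized scale, set against the weakest signal that counted as detected on each array. PRSS23, a serine protease, was at least 17.5-fold higher, HRG at least 14.9-fold and the interferon-stimulated gene IFI44 at least 14.03-fold. In the other direction, CR2, the complement receptor CD21, was at least 20.5-fold lower, LMO3 at least 9.03-fold and the receptor kinase KIT at least 8.90-fold. With normexp background correction, whose offset compresses low signals, the log2 changes were smaller than these bounds, 2.62 for PRSS23, 1.96 for HRG, 2.06 for IFI44, -2.67 for CR2, -1.70 for LMO3 and -1.73 for KIT. The bounds therefore do not hold under that correction. CR2 and KIT each have a second probe, with changes of -1.55 and -0.98, that was not called.

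The same line had been sampled at 6 h, with its own untreated arrays. At 6 h, 273 probes (0.809%) were higher and 106 (0.314%) lower, and with 1 probe a gene 198 (1.21%) and 67 (0.409%). Of the probes higher at 24 h, 214 (11.9%) were higher at 6 h as well, which is 78.4% of those higher at 6 h. For the probes lower at 24 h the shared number was 69 (3.07%), or 65.1% of the falls at 6 h. The untreated arrays of the 2 times differed by this rule on 0 probes (0%) in limma, with 968 of 33731 at an unadjusted p under 0.05. The 6 h total of 379 was 146 to 221 without any single 6 h array of this line, and 636 or 641 without either LP-1-cIAP2-eGFP bortezomib 24 h array.

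**Figure D4:**
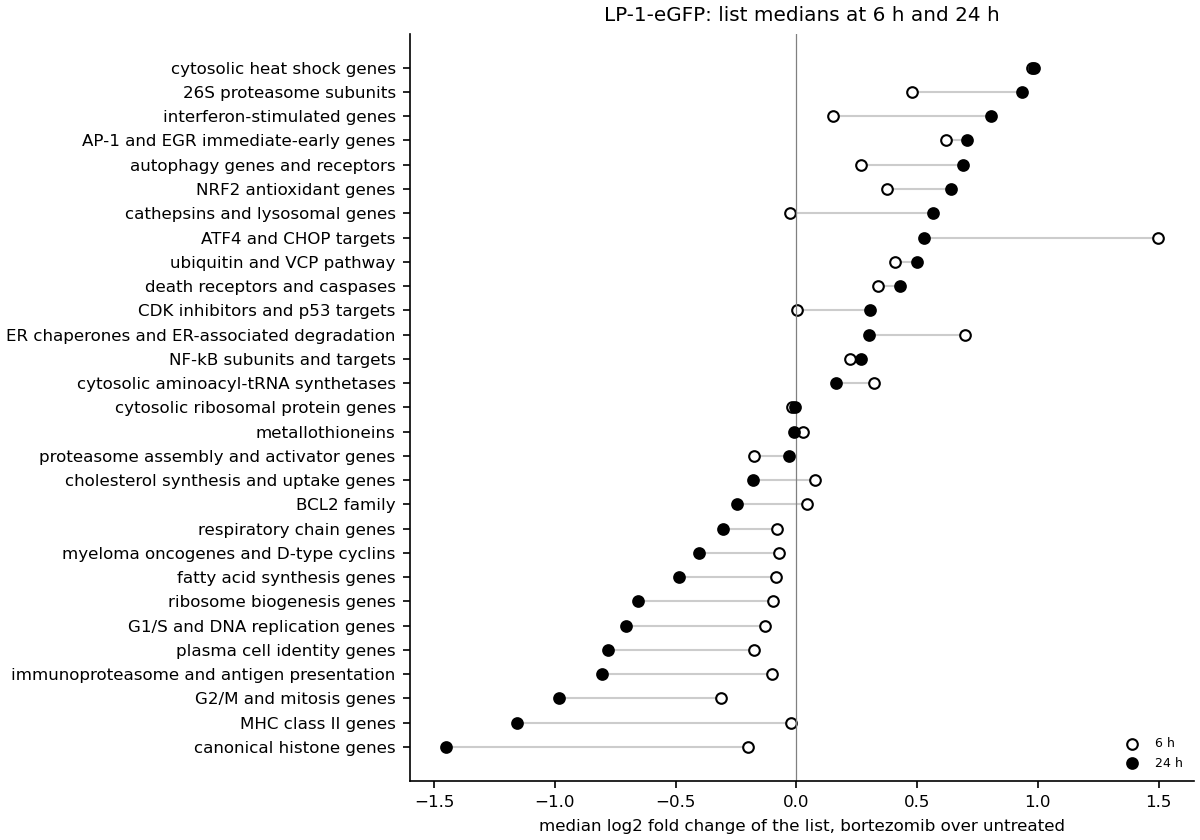
Median log2 change of each gene list in LP-1-eGFP, bortezomib over untreated, at 6 h (open) and 24 h (filled). Targets of ATF4 and CHOP had their higher median at 6 h (1.50 against 0.53), heat shock genes had nearly the same median at both (0.98), and the histone, MHC class II, mitosis and immunoproteasome lists had lower medians at 24 h than at 6 h.

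Heat shock genes were already called at 6 h. HSPA6 had changes of 8.88 at 6 h and 9.37 at 24 h, a difference of 0.50 that did not pass (adjusted p = 0.712), and 13 of the heat shock genes were called higher at 6 h. ZFAND2A had 4.43 and 4.26, HSPA5 2.49 and 2.59, and HMOX1 2.75 and 1.92. For the ATF4 and CHOP list 11 genes were called higher at 6 h. CHAC1 changed by 3.35 at 6 h against -0.32 at 24 h, a difference that did not pass (adjusted p = 0.202) and in which the untreated 24 h arrays lay apart, whereas for the amino acid transporter SLC7A5, with 1.82 and -0.43, it did (adjusted p = 0.0132). Of the proteasome subunits 3 were called higher at 6 h, with a median of 0.48. PSMC4 gave 0.77 and 2.05, and its difference of 1.28 passed (adjusted p = 0.0111).

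Most of the falls were not called at 6 h, although 2067 of the 2251 probes lower at 24 h, and 1557 of the 1792 higher, had the same sign there. The test of the difference between the 24 h and 6 h responses was passed by 1325 probes (3.93%), 505 (1.5%) in the upward and 820 (2.43%) in the downward direction, and by 406 (2.48%) and 580 (3.54%) of genes on their brightest probe. FGFR3 had a change of 0.03 at 6 h, CCND2 -0.07, MZB1 0.01 and BCL2L1 -0.08. Each of these differed from its change at 24 h, with adjusted p = 0.0301, 0.00188, 0.00820 and 0.0133. In the histone list 10 of 28 genes passed downward, in the MHC class II list 6 of 13 and in the plasma cell list 7 of 21. SDC1 had -1.44 already at 6 h (adjusted p of the difference = 0.572). Some rises were late as well, and 5 of 24 interferon-stimulated genes passed upward. CCL5 had 0.12 at 6 h and 5.33 at 24 h, and IFIT3 1.01 and 5.72. The lysosomal gene NEU1, with -0.01 at 6 h, was higher at the later time (adjusted p of the difference = 0.0170).

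**Figure D5:**
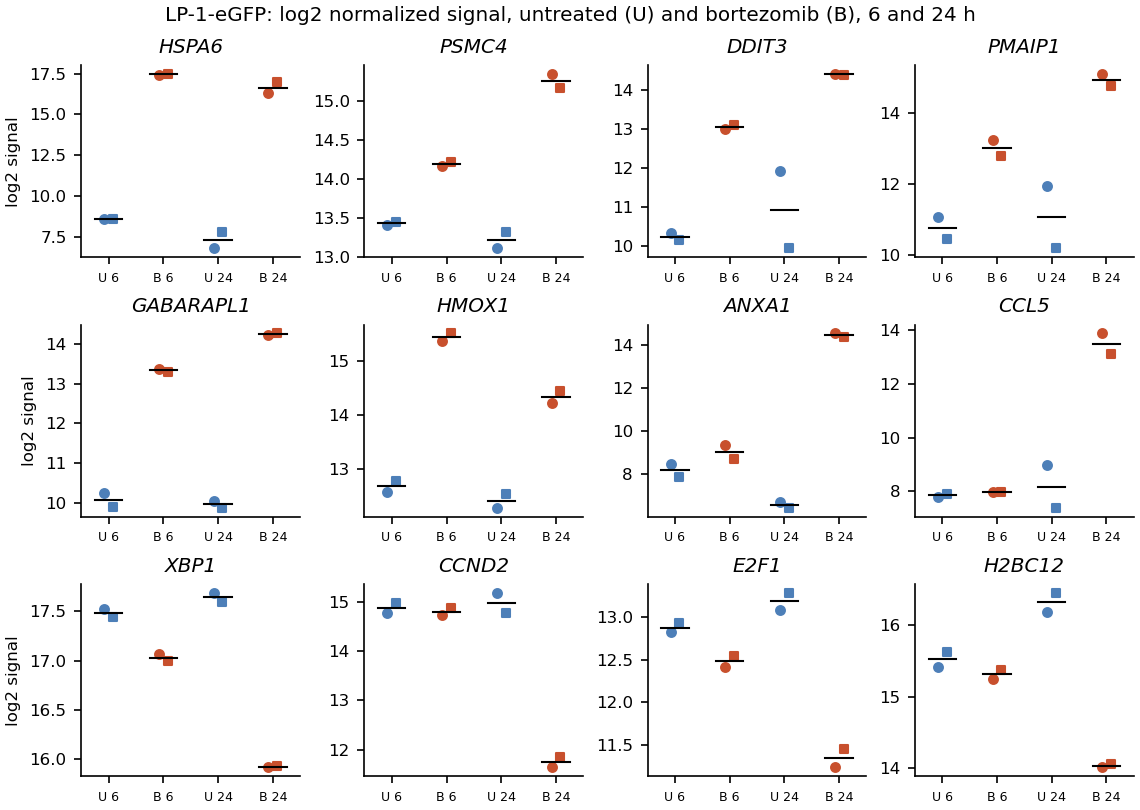
Log2 normalized signal of 12 genes on the 8 LP-1-eGFP arrays, by time and treatment (circle replicate 1, square replicate 2, line the mean of the pair). HSPA6 is high in both bortezomib groups, whereas ANXA1 and CCL5 are high, and CCND2, E2F1 and H2BC12 low, with bortezomib at 24 h.

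The total of 1325 probes for the difference between times depended on single arrays. It was 304 and 410 without untreated 6 h replicates 1 and 2, 392 and 407 without bortezomib 6 h replicates 1 and 2, and 419 without bortezomib 24 h replicate 1. It was 3708 and 3772 without LP-1-cIAP2-eGFP bortezomib 24 h replicates 1 and 2, a pair that differed with an SD of 1.48. Without untreated 24 h replicate 2 it was 764, and it was 682 to 795 without any 1 of the remaining 6 LP-1-cIAP2-eGFP arrays.

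Finally, the 24 h response of LP-1-eGFP was set against that of LP-1-cIAP2-eGFP. The difference passed for 24 of 33730 probes (0.0712%), 8 upward (0.0237%) and 16 downward (0.0474%). This comparison is weak, since bortezomib replicate 1 of the partner line had a median signal of 3.18 and 35.5% of spots well above background, the lowest of the 16 arrays, and its pair differed with an SD of 1.48 where that of LP-1-eGFP differed with 0.723. The count was 221 without that array and 9505 without its partner. It was 6 to 15 without any 1 of the 8 arrays of 6 h, 48 without LP-1-cIAP2-eGFP untreated 24 h replicate 1, 43 and 101 without LP-1-eGFP untreated 24 h replicates 1 and 2, and 81 without LP-1-eGFP bortezomib 24 h replicate 2. A p over the threshold does not show that the lines responded alike. P2RY6, a receptor for uridine nucleotides, rose by 2.51 in LP-1-eGFP and had -0.32 in the partner line (adjusted p of the difference = 0.0109, and 0.00204 without the dim array). SPP1, osteopontin, rose by 2.79 and had 0.05 (adjusted p = 0.0106, and 0.00361 without it). Both genes were well above background on all 4 arrays of each line at 24 h, but with array weights no probe passed, these included. None of the core genes of the proteasome or heat shock lists was among the 24, and HSPA6 had a change of 9.37 in LP-1-cIAP2-eGFP.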

How the data were processed

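The deposited values were of 2 kinds: for each of 16 1-colour arrays, spot intensities from the scanner software (Agilent Feature Extraction 10.7.3.1), and a table of log2 values that the authors had quantile normalized and centred on the median of each probe. The processed intensity was used as the main source and the authors' log2 table as an alternative. Control spots and spots marked as outliers were removed, spots of a probe averaged on the log2 scale, and arrays quantile normalized, which assumes like distributions of signal on all arrays. Of 50599 probes, 33731 were kept, each detected on both replicates of 1 or more of the 8 conditions. Symbols were given to 28174 probes (55.7%) by RefSeq accession, to 20503 symbols in all, and NFKB2 had no matched probe.

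The 8 group means were fitted with limma 3.58.1 in R 4.3.3 to all 16 arrays, with moderated variances (eBayes) and Benjamini-Hochberg adjustment over all probes. A call needed an adjusted p under 0.05 and, except for differences between 2 responses, more than 2-fold. The script was tested on simulated data. The probe with the highest mean signal stood for a gene.

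Genes were named by rule: the 12 largest rises and falls well above background on all 4 arrays, the 3 largest bounds each way, core members of each list, the 3 called members of each list that changed most, and the 4 and 3 largest differences each way between times and between lines. Some of these genes are not reported here. Further members were named after their values were seen. The lists and members were chosen with earlier results of these data known. A bound sets the mean of the detected group against the lowest signal well above background on each array of the other. Alternatives were 75th percentile scaling, normexp background correction (offset 50), the authors' values, 2 other filters, replicate number or slide as a block, array weights, fewer arrays, other moderation, other thresholds, averaged probes and each array left out. The slide 2 fit and the fit without the LP-1-cIAP2-eGFP bortezomib 24 h pair were added after seeing the data.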

Additional observations from a re-analysis of the deposited data

Results flagged for a closer look

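The response of LP-1-eGFP differed between 24 h and 6 h for 1325 probes by the test of the difference, and 66 of the 195 probes that the rule named passed it. The 4 largest positive differences (24 h response minus 6 h response, log2) with signal well above background on all 8 arrays were 7.04 for ANXA1, 5.90 for CCL4, 5.21 for CCL5 and 4.71 for IFIT3. The 4 largest negative ones were -3.89 for CHN2, -3.82 for IGLL1, -3.73 for GALNT18 and -3.49 for CRYBB1, a lens crystallin gene. When single arrays were left out, GALNT18 passed in 10 of 16 fits and the other 7 genes in 16 of 16.

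The 24 h response differed between the lines for 24 probes. Among the positive differences (LP-1-eGFP minus LP-1-cIAP2-eGFP, log2) were 2.83 for P2RY6 and 2.74 for SPP1, and the 3 largest negative ones were -4.71 for HBEGF, -4.67 for VSTM4 and -3.42 for STRA6. P2RY6 and SPP1 passed in 16 of 16 fits with 1 array left out, HBEGF in 5, VSTM4 in 4 and STRA6 in 3, whereas with array weights none of these 5 passed. Without the dim LP-1-cIAP2-eGFP bortezomib 24 h replicate 1, P2RY6 gave 2.56, SPP1 2.74, HBEGF -4.87, VSTM4 -4.22 and STRA6 -3.66. On the 24 h arrays of LP-1-cIAP2-eGFP, HBEGF and VSTM4 were each well above background on 1 of 4 and STRA6 on 0 of 4, so the sizes of these 3 differences rest in part on background signal.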

How the results depend on the processing

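None of the 132 called probes named by the rule changed direction under any alternative, and genes named outside it were not tallied. Some that were not called did change, CHAC1 ranging from -0.48 to 0.15. All 132 lost the call when only the 4 arrays or only slide 2 were fitted. At an adjusted p under 0.001, 38 lost it, with normexp 9, with 75th percentile scaling 2 (NFE2L1 and GARS1), with slide as a block 8, and without bortezomib replicates 1 and 2 and untreated replicates 1 and 2 of 24 h 20, 10, 8 and 18. The 24 h counts (1792 higher, 2251 lower) stayed within 1.5 times under most alternatives, the replicate block among them (1887 and 2346). They were 0 and 0 when only the 4 arrays or only the 8 arrays of slide 2 were fitted (for the latter, 9429 probes at an unadjusted p under 0.05, 5430 of them over 2-fold), 698 and 965 at an adjusted p under 0.001, and 1104 and 1408 with all probes of a symbol averaged, where fewer items are tested. With the filter tightened to probes detected on all 16 arrays the falls numbered 1337, and 50.9% of calls were rises in place of 44.3%. Without 1 array they ranged from 1483 to 2174 higher and 1596 to 2889 lower.

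The 6 h total of 379 became 219 without a filter, 226 with slide as a block and 1204 with array weights, and 146 to 641 without 1 array. The total of 1325 for the difference between times became 883 with 75th percentile scaling, 486 without a filter, 2979 with probes detected on all 16 arrays, 348 with slide as a block, 3743 with array weights and 2503 with trended and robust moderation, and 304 to 3772 without 1 array. The total of 24 for the difference between lines became 9 with 75th percentile scaling, the authors' values or slide as a block, 71 with normexp, 80 with probes detected on all 16 arrays or trended and robust moderation, 15 with the replicate block, 0 with array weights (1370 at an unadjusted p under 0.05 in limma), and 6 to 9505 without 1 array. The 0 for untreated cells between times became 1 with probes detected on all 16 arrays and 0 to 120 without 1 array. The causes were not tested.

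Whether replicate numbers pair the samples is not stated by the labels, and the main fit took them as unpaired. Deviations of same-numbered arrays correlated at 0.21 between untreated and bortezomib 24 h arrays of LP-1-eGFP, but not above 0.1 in every pair of groups. These correlations do not settle the pairing, and the replicate block stands as an alternative. List medians kept their sign under the 4 scalings, except for the tRNA synthetase, ribosomal protein, metallothionein and proteasome assembly lists. With 75th percentile scaling the medians were 0.24 for ribosomal proteins, 0.19 for death receptors and caspases and 0.33 for lysosomal genes, and with normexp 0.17 for NF-kB and 0.32 for AP-1 and EGR genes (0.71 in the main setting). The 2 arrays a group and a signal floor on dim probes limit what could be called.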
